A study of Caenorhabditis elegans with 8 samples.

Results

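The genes elt-2, elt-7, ges-1, pho-1, act-5, ifb-2, ifc-2, erm-1 and pept-1 encode regulators, enzymes, brush border proteins and a nutrient transporter of the Caenorhabditis elegans intestine. They were taken from the table by WormBase symbol, from a list drawn up with earlier results of these data known. All 9 were found among the 46748 gene identifiers of the deposited count table, and all 9 were among the 14449 genes kept for testing. The study sequenced mRNA from whole hermaphrodites of N2, the wild-type strain, as 8 libraries. The libraries fell into 4 groups of 2, namely worms given water and worms given arsenite, each at the ages of 1 day and 5 days. Both the water and the arsenite labels carry 100 nM, and the 1-day descriptions also carry 24 h without saying what this time measures. The length of exposure is not stated. Titles number the 5-day libraries 23 to 26 and the 1-day libraries 31 to 34, so age cannot be told apart from any batch that follows these numbers. Whether the paired libraries within a group stem from separate cultures is not labelled. The p-values therefore speak only of the scatter among these samples, and that scatter may be technical.

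The intestine of this worm is a tube of large epithelial cells that all descend from a single embryonic blastomere. GATA-type transcription factors specify it and keep it differentiated. On the apical side each cell carries a brush border of microvilli, which are built on bundled actin, joined to the membrane by ezrin-type linkers and anchored in a dense sheath of intermediate filaments. Digestive enzymes act in the lumen and in vesicles, and transporters in the microvillar membrane take up the products of digestion.

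The 8 libraries held between 21598326 and 27317490 counts. Replicate libraries correlated at 0.997 to 0.998 in log2 CPM, the counts of a gene scaled to a common library size, across genes, which are not independent replicates. Their counts differed by more than sampling noise, and chi-square divided by its degrees of freedom was 3.98 to 8.03, so each library was counted once. The lowest count of any of the 9 genes was 65, for elt-7 in an arsenite library at 5 days, and the highest was 11293, for act-5 in a water library at 1 day. Levels below are CPM scaled by the trimmed mean of M-values (TMM). Fold changes come from a single edgeR quasi-likelihood fit to the counts of all genes, with Benjamini-Hochberg adjustment over all genes tested and a threshold of 0.05. Errors of levels are SDs over 2 libraries, and errors of log2 fold changes are SEs.

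The age differences of the intestinal genes were of unlike size. In water, 7 of the 9 were lower at 5 days and none was higher. The largest differences were those of the acid phosphatase pho-1, the microvillar actin act-5 and the peptide transporter pept-1, at 4.94-fold, 3.77-fold and 3.37-fold lower. The carboxylesterase ges-1 did not pass the test, with a log2 fold change of -0.03 and a 95% interval of -0.20 to 0.13. Arsenite against water passed the test for none of the 9 genes at either age.

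These counts stand against a background in which most genes differed with age. In water, 60.1% of all genes tested passed the test between the ages, 30.0% as lower and 30.1% as higher at 5 days. In arsenite, 59.6% passed, 29.4% as lower and 30.3% as higher, and 8 of the 9 intestinal genes were lower. The median log2 fold change of the 9 genes was -1.07 in water and -1.18 in arsenite, where the median over all genes tested was 0.01 in both. The 9 genes together took 0.125% to 0.129% of all counts in the 1-day libraries and 0.0600% to 0.0652% in the 5-day libraries. In whole worms, fewer intestinal cells, less message per intestinal cell and more message from other tissues cannot be told apart.

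**Figure D1:**
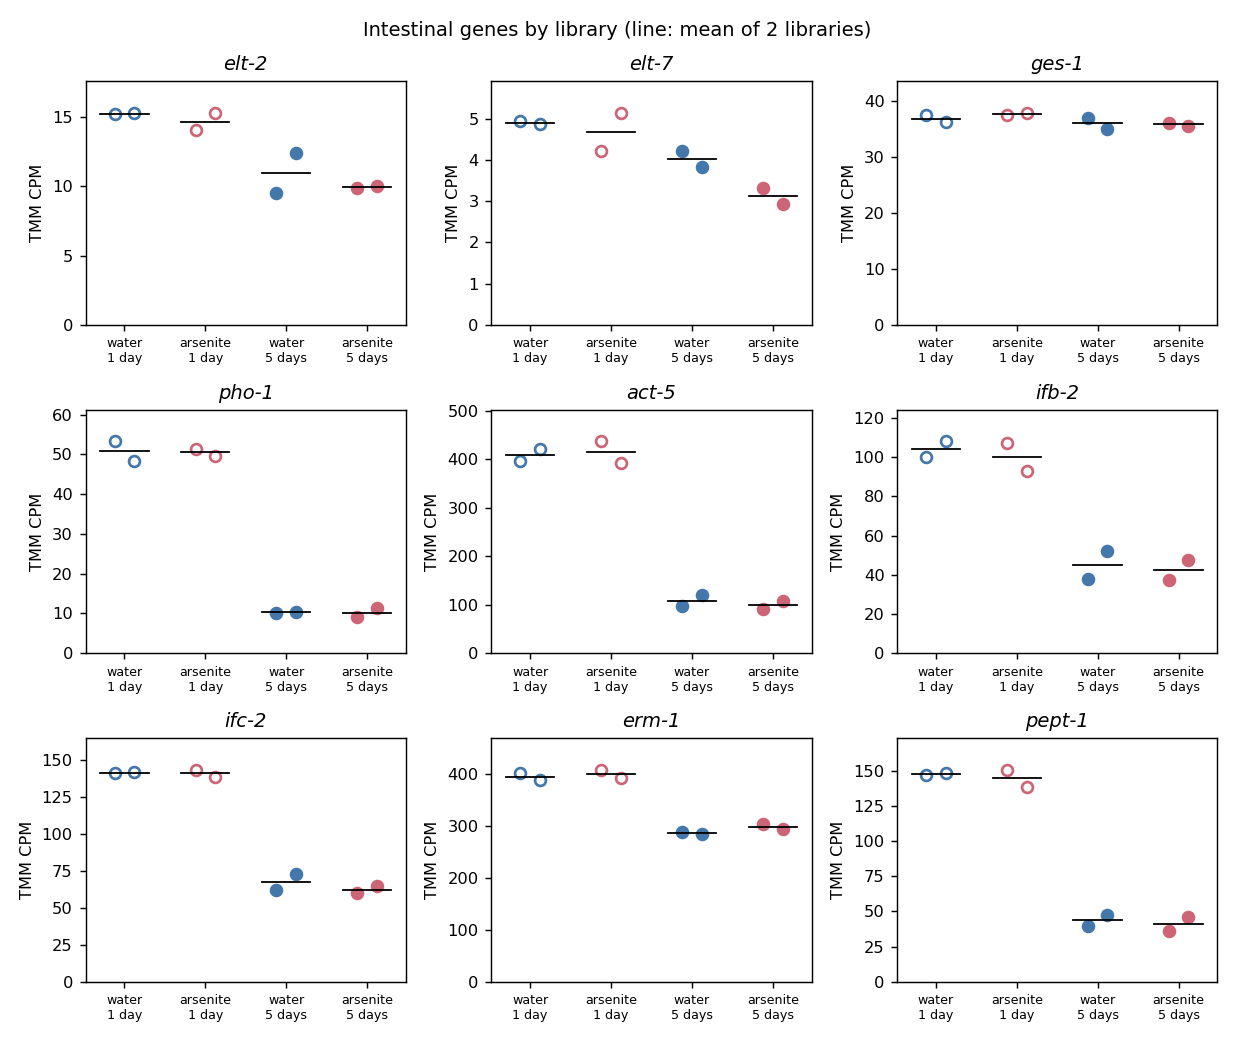
TMM-scaled CPM of the 9 genes in each of the 8 libraries, with 1 panel a gene and a separate vertical axis from 0 in each. Points are libraries, open at 1 day and filled at 5 days, blue for water and red for arsenite, and the line is the mean of 2 libraries. The pho-1 points fall from 48.4 to 53.3 CPM at 1 day to 8.99 to 11.3 CPM at 5 days, whereas the ges-1 points lie between 34.9 and 37.9 CPM throughout.

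The first regulator, elt-2, encodes the GATA factor that is the main regulator of intestinal genes after the endoderm has formed. It lies at chrX:10481240-10483441 on the plus strand of the WBcel235 assembly. In water it was at 15.2 and 15.3 CPM at 1 day and at 9.503 and 12.4 CPM at 5 days. In arsenite it was at 14.05 and 15.3 CPM at 1 day and at 9.89 and 10.04 CPM at 5 days. All 4 libraries of 5 days lay below all 4 of 1 day, and the 5-day water libraries were the pair that differed most. The log2 fold change with age was -0.48 ± 0.13 in water (adjusted p = 0.00264) and -0.56 ± 0.13 in arsenite (adjusted p = 0.000712). The call in water was lost without the water library numbered 23, where the log2 fold change was -0.30 with an adjusted p of 0.0741. Over all alternatives tried the value in water ran from -0.68 to -0.30.

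The second regulator, elt-7, encodes a GATA factor that acts alongside ELT-2 in gut differentiation (chrV:4770670-4773086, plus strand). Per kilobase of exon it had the lowest level of the 9 genes in every group. In water its level was 4.95 and 4.86 CPM at 1 day and 4.21 and 3.82 CPM at 5 days. In arsenite its level was 4.21 and 5.14 CPM at 1 day and 3.31 and 2.93 CPM at 5 days. The 5-day libraries were lower than the 1-day libraries of the same treatment, but 1 arsenite library of 1 day and 1 water library of 5 days were equal to 3 digits. The age difference did not pass the test in water, at -0.29 ± 0.18 (adjusted p = 0.176). It passed in arsenite, at -0.58 ± 0.19 (adjusted p = 0.0103). The 2 age differences were not shown to differ from each other, at -0.29 ± 0.26 for arsenite minus water (adjusted p = 1.00). The call in arsenite was lost in 3 of 15 alternatives: without the arsenite libraries numbered 26 (-0.51, adjusted p = 0.0620) or 34 (-0.43, adjusted p = 0.130), and with a term that groups libraries of adjacent number (-0.44, adjusted p = 0.0772). Its adjusted p ran from 0.00761 to 0.130 over those alternatives.

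Among the enzymes, ges-1 encodes a gut carboxylesterase whose gene has long served as a marker of intestinal differentiation and is activated through GATA sites (chrV:1427653-1432137, minus strand). At 1 day the water libraries held 37.4 and 36.2 CPM of it and the arsenite libraries 37.5 and 37.9 CPM. At 5 days the water libraries held 37.0 and 34.9 CPM and the arsenite libraries 36.0 and 35.6 CPM. The libraries of both ages overlapped in water, while in arsenite both 5-day libraries were below both 1-day libraries by a small margin. The log2 fold change with age was -0.03 ± 0.08 in water (adjusted p = 0.731) and -0.07 ± 0.08 in arsenite (adjusted p = 0.422). The intervals, -0.20 to 0.13 and -0.24 to 0.09, do not reach the fall of elt-2 at its fitted value. With library totals as the only scaling the ges-1 values were 0.04 and 0.01, so its sign changed with the scaling.

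The other enzyme gene, pho-1, encodes an intestinal acid phosphatase (chrII:5233156-5235846, minus strand). Its level in water was 53.3 and 48.4 CPM at 1 day and 10.2 and 10.3 CPM at 5 days. In arsenite it was 51.4 and 49.6 CPM at 1 day and 8.99 and 11.3 CPM at 5 days. The ages were separated by a wide gap under both treatments. Its log2 fold change was -2.31 ± 0.10 in water (adjusted p = 4.45e-15) and -2.32 ± 0.10 in arsenite (adjusted p = 4.02e-15), the steepest fall of the 9 genes. Exons of pho-1 overlap those of EGAP2.1 on the opposite strand over 120 bases, and the strand setting of the counting is not given in the sources used here. EGAP2.1 had 214 to 283 counts a library, similar to the 220 to 250 counts of pho-1 at 5 days, and its own age difference was -0.04 ± 0.14 in water (adjusted p = 0.832).

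Of the structural genes of the brush border, act-5 encodes the actin of the microvilli (chrIII:13604412-13606066, minus strand). Its level in water was 396 and 422 CPM at 1 day and 97.7 and 119 CPM at 5 days. Under arsenite the values were 437 and 393 CPM at 1 day and 91.5 and 109 CPM at 5 days. Every 5-day library was far below every 1-day library. With age the log2 fold change was -1.92 ± 0.11 in water (adjusted p = 8.00e-07) and -2.05 ± 0.11 in arsenite (adjusted p = 5.04e-07), or 4.15-fold lower in arsenite.

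The linker gene erm-1 encodes the single ezrin, radixin and moesin family protein of the worm, which ties actin to the apical membrane of the intestine and of other epithelia (chrI:5284026-5291604, minus strand). Its level in water was 402 and 389 CPM at 1 day and 290 and 284 CPM at 5 days. The arsenite libraries gave 409 and 394 CPM at 1 day and 303 and 294 CPM at 5 days. The ages did not overlap, and replicates lay close together. Its age difference was, on the log2 scale, -0.46 ± 0.06 in water (adjusted p = 2.20e-07) and -0.43 ± 0.06 in arsenite (adjusted p = 7.37e-07), a much smaller step than that of act-5.

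Both intermediate filament genes were lower at 5 days by more than 2-fold. The first, ifb-2, encodes an intestinal intermediate filament protein of the apical sheath (chrII:5750188-5754140, plus strand). Its level in water was 100.3 and 108 CPM at 1 day and 38.0 and 52.1 CPM at 5 days. The arsenite libraries gave 107 and 93.2 CPM at 1 day and 37.3 and 47.7 CPM at 5 days. The ages did not overlap, but the replicates at 5 days were spread more widely than those of most of the other genes. Its log2 fold change was -1.21 ± 0.19 in water (adjusted p = 0.00361) and -1.24 ± 0.19 in arsenite (adjusted p = 0.00338).

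The second, ifc-2, encodes another filament protein of the same sheath (chrX:642156-654904, minus strand, 7 annotated transcripts that the count does not separate). In water it was at 141 CPM in both 1-day libraries and at 62.0 and 72.8 CPM at 5 days. In arsenite it was at 143 and 138 CPM at 1 day and at 59.7 and 64.3 CPM at 5 days. The 1-day libraries lay within a few CPM of each other and well above all 5-day libraries. Its log2 fold change was -1.07 ± 0.07 in water (adjusted p = 7.14e-12) and -1.18 ± 0.07 in arsenite (adjusted p = 1.15e-12).

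The transporter gene pept-1 encodes the proton-coupled carrier that takes up dipeptides and tripeptides from the gut lumen (chrX:6456872-6461767, plus strand). Its level in water was 147 and 148 CPM at 1 day and 39.8 and 47.7 CPM at 5 days. Under arsenite they were 151 and 139 CPM at 1 day and 36.0 and 45.8 CPM at 5 days. Every 5-day library was below every 1-day library by a wide gap. The log2 fold change was -1.75 ± 0.11 in water (adjusted p = 2.02e-07) and -1.82 ± 0.11 in arsenite (adjusted p = 1.50e-07).

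**Figure D2:**
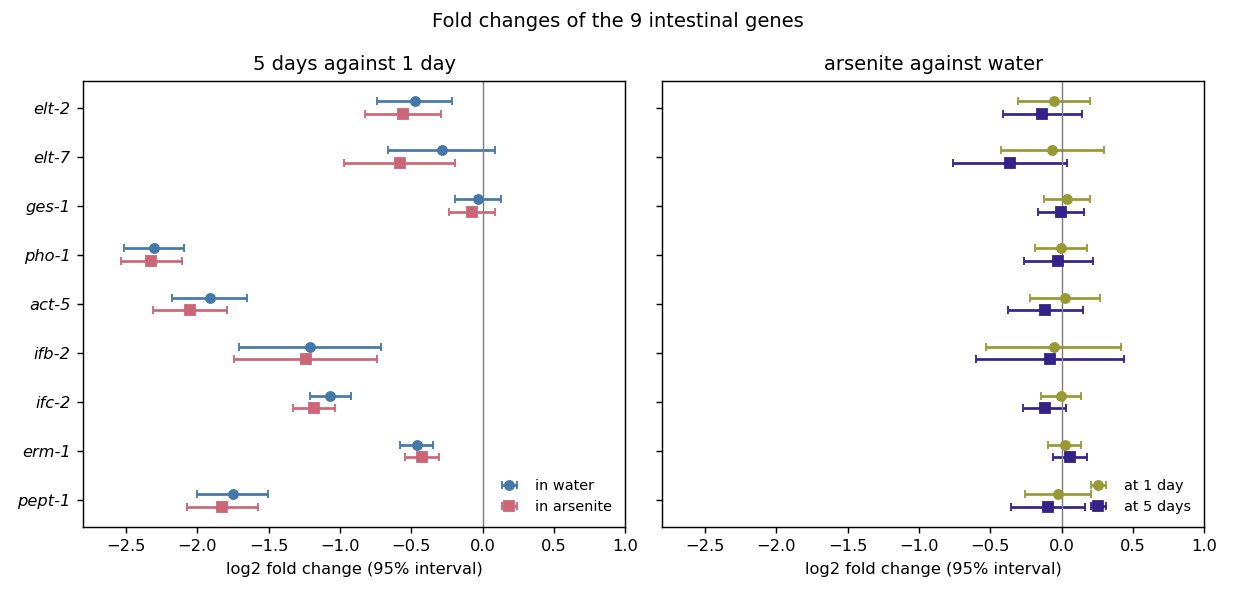
Log2 fold changes of the 9 genes with 95% intervals from the edgeR fit, 5 days against 1 day on the left (circles in water, squares in arsenite) and arsenite against water on the right (circles at 1 day, squares at 5 days). The horizontal axes share 1 scale. With age the points run from -2.32 for pho-1 in arsenite to -0.03 for ges-1 in water, while with arsenite they stay between -0.36 and 0.06 and every interval holds 0.

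Arsenite was the treatment of the design, and none of the 9 genes passed the test for it. At 1 day, 0% of all genes tested passed and 238 had an unadjusted p under 0.05, none of them among the 9. The log2 fold changes of the 9 genes lay between -0.07 for elt-7 and 0.03 for ges-1, with a median of -0.01, and 3 of the 9 were positive. The lowest and highest 95% bounds of any of the 9, -0.53 and 0.42, were both those of ifb-2. At 5 days, 0.0138% of all genes tested passed and 573 had an unadjusted p under 0.05, again none of them among the 9. The log2 fold changes lay between -0.36 for elt-7 and 0.06 for erm-1, with a median of -0.10 against -0.0042 over all genes, and 1 of the 9 was positive. These signs are not independent, because the genes share the same libraries. Without the water library numbered 25, elt-2 (0.060), act-5 (0.027), ifb-2 (0.15) and pept-1 (0.029) were positive as well. DESeq2 and limma voom also called none of the 9 at either age.

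The lowest value at 5 days belonged to elt-7, with a mean of 4.01 ± 0.28 CPM under water against 3.12 ± 0.27 CPM under arsenite (n = 2 each). Both arsenite libraries were below both water libraries. The log2 fold change was -0.36 ± 0.19 with a 95% interval of -0.76 to 0.04 and an adjusted p of 1.00. The highest value belonged to erm-1, with 287 ± 3.84 CPM in water and 299 ± 6.75 CPM in arsenite and a log2 fold change of 0.06 ± 0.06. For the 5-day arsenite effect minus the 1-day effect, 0% of all genes passed and 368 had an unadjusted p under 0.05, none among the 9. The values of the 9 lay between -0.29 for elt-7 and 0.04 for erm-1. At 5 days the lowest and highest 95% bounds of any of the 9 were -0.76 for elt-7 and 0.43 for ifb-2. Changes within each gene's own interval were not excluded.

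Set per kilobase of exon, the order of the levels differed between the ages. In water at 1 day act-5 led with 322 ± 14.6 CPM per kilobase, followed by erm-1 with 162 ± 3.69. The filament gene ifb-2 (54.6 ± 2.89) and pept-1 (52.7 ± 0.38) came next, and the ranges of these neighbours overlapped. Below them pho-1 (33.6 ± 2.31), ifc-2 (28.2 ± 0.05), ges-1 (21.1 ± 0.49), elt-2 (9.79 ± 0.03) and elt-7 (5.83 ± 0.08) followed without overlap. The 1-day arsenite libraries gave the same order and the same single overlap.

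At 5 days erm-1 was the highest of the 9, with 118 ± 1.57 CPM per kilobase in water, and act-5 was second with 85.4 ± 11.98. Erm-1 was above act-5 in all 4 libraries of 5 days and below it in all 4 of 1 day. The ges-1 level of 20.6 ± 0.82 CPM per kilobase overlapped that of ifb-2 (23.6 ± 5.21) and now lay above pept-1 (15.7 ± 2.01) and ifc-2 (13.4 ± 1.52), which overlapped each other. At 6.80 ± 0.06 CPM per kilobase, pho-1 had come down to the level of the regulator elt-2 (7.04 ± 1.33), and their ranges overlapped. In arsenite at 5 days the order was the same, except that pho-1 (6.70 ± 1.06) stood above elt-2 (6.40 ± 0.07) with overlapping ranges and that pept-1 (14.6 ± 2.48) and ifc-2 (12.4 ± 0.66) did not overlap.

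Ratios within a library do not depend on how libraries are scaled, so each gene was also set against elt-2 in the same library, per kilobase and as log2. The pho-1 ratio was 1.71 to 1.92 in the 4 libraries of 1 day and -0.22 to 0.21 in the 4 libraries of 5 days. It was thus 3.47-fold lower at 5 days. The act-5 ratio was 4.98 to 5.25 at 1 day and 3.50 to 3.73 at 5 days, and the pept-1 ratio was 2.34 to 2.58 at 1 day and 1.02 to 1.35 at 5 days.

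None of these ranges overlapped between the ages. The mean differences were -1.79 for pho-1, -1.47 for act-5, -1.27 for pept-1, -0.71 for ifb-2 and -0.61 for ifc-2. The ges-1 ratio moved the other way, from 1.08 to 1.26 at 1 day to 1.33 to 1.80 at 5 days, a mean difference of 0.47. Each of these 6 differences had a two-sided exact permutation p of 0.0286 over 4 against 4 libraries, the smallest that this design can give, with no adjustment for the 8 ratios tested. All 8 ratios share the elt-2 counts, so these p-values are not separate results. On its own, ges-1 differed by -0.03 in water and -0.07 in arsenite, and elt-2 by -0.48 and -0.56. The ges-1 ratio thus mostly restates the fall of elt-2. The ratios of elt-7 and erm-1 overlapped between the ages, with differences of 0.09 (exact permutation p = 0.743) and 0.08 (exact permutation p = 0.457). With elt-7 as the reference 5 of the 6 passed, and ges-1 had a difference of 0.38 (exact permutation p = 0.0571). Water and arsenite libraries were pooled by age for these ratios. In the water libraries alone the differences were -1.82 for pho-1 and 0.45 for ges-1, and in the arsenite libraries alone they were -1.77 and 0.48.

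**Figure D3:**
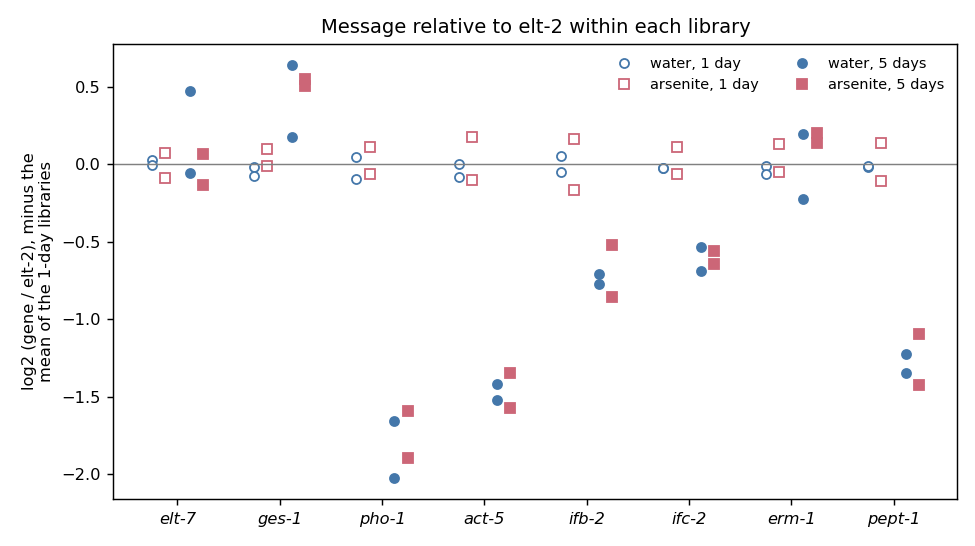
Log2 ratio of each gene to elt-2 within each library, per kilobase of exon, minus the mean of the 1-day libraries. Circles are water and squares arsenite, open at 1 day and filled at 5 days. At 5 days pho-1 lies lowest and ges-1 above 0 in every library, and elt-7 and erm-1 lie on both sides of 0.

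The 4 libraries of 5 days were not alike in these genes. Libraries 25 and 26 were both above libraries 23 and 24 in 6 of the 9 genes (elt-2, pho-1, act-5, ifb-2, ifc-2 and pept-1), as were 22.9% of all genes tested. Each of these pairs holds 1 water and 1 arsenite library. The differences ran from 1.13-fold for pho-1 and ifc-2 to 1.32-fold for ifb-2. Libraries 25 and 26 were both below the others in ges-1, as were 22.2% of all genes tested, at 0.966-fold. Elt-7 and erm-1 overlapped. These 6 genes are not independent, because they were measured in the same libraries. With a term in the fit that groups libraries of adjacent number, 7 of the 9 were still lower with age in water and 7 in arsenite.

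**Figure D4:**
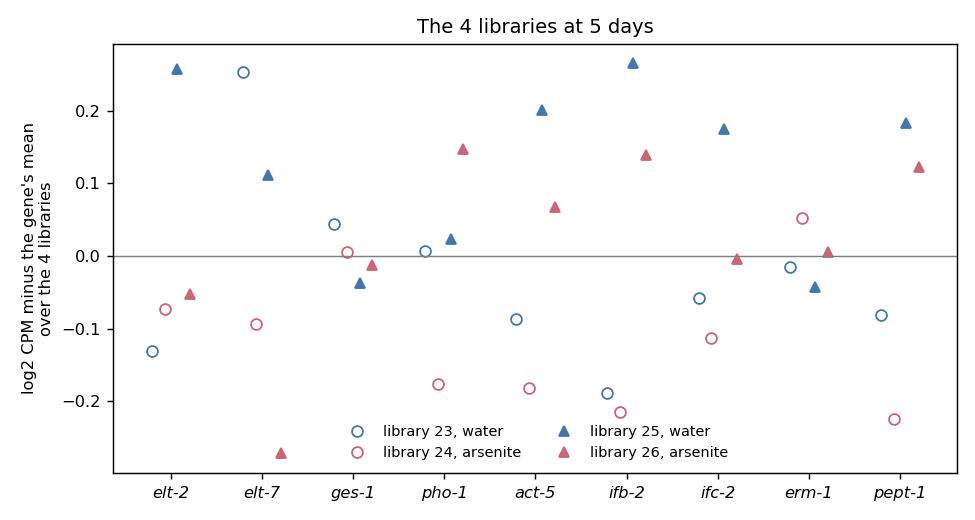
Log2 CPM of the 9 genes in the 4 libraries of 5 days, each minus the gene's mean over these 4 libraries. Circles are libraries 23 and 24 and triangles libraries 25 and 26, blue for water and red for arsenite. The triangles lie above the circles in 6 genes, by 1.32-fold in ifb-2, and below them in ges-1.

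Genes that share a role with the 9 were counted from lists, without a test of any list. Beside these counts stand all genes tested, of which 30.1% were higher and 30.0% lower with age in water. In arsenite these shares were 30.3% and 29.4%. In a list of endoderm regulators that also holds pqm-1, 5 of 8 genes were tested, and 2 rose, 1 fell and 2 did not pass with age in water. Their median was 0.16. The zinc finger gene pqm-1, which acts in stress and development, was at 16.7 ± 1.60 CPM at 1 day and 27.8 ± 0.25 CPM at 5 days in water, a log2 fold change of 0.74 ± 0.10 (adjusted p = 1.22e-06). The embryonic endoderm GATA gene end-1 had 26 and 34 counts in the water and 25 and 38 in the arsenite libraries of 1 day. At 5 days its counts were 1 and 2 for water, against 2 and 2 for arsenite. The ratio of 1 day over 5 days in water was 18.8 with an exact 95% interval of 6.12 to 93.6, which covers counting error only. The skn-1 gene, which encodes a maternal endoderm determinant and stress regulator, had a log2 fold change of 0.16 ± 0.06 (adjusted p = 0.0208) that lost its call in 4 of 15 alternatives.

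In the intestinal intermediate filament system, 6 of 9 genes fell, none rose and 3 did not pass in water, with a median of -0.74. In arsenite 8 of 9 fell. Apart from ifb-2 and ifc-2 these were 4 of 7 in water and 6 of 7 in arsenite. The filament gene ifd-2 fell by 0.90 ± 0.10 and ifd-1 fell by 1.34 ± 0.16 on the log2 scale. The organiser gene ifo-1, whose protein holds the sheath together, went from 51.9 ± 1.76 to 33.01 ± 3.59 CPM, a log2 fold change of -0.65 ± 0.08 (adjusted p = 4.82e-07). The kinase gene sma-5 (-0.28, adjusted p = 0.0540) and the coiled-coil gene bbln-1 (0.21, adjusted p = 0.0769), whose products act on the same sheath, did not pass in water. Nor did the filament gene ifc-1 (-0.62, adjusted p = 0.0961).

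Of the genes of the apical membrane and microvillus, 11 of 14 fell, 2 rose and 1 did not pass in water, with a median of -0.68. Apart from act-5, erm-1 and pept-1 these were 8 of 11. The vacuolar ATPase subunit gene vha-6, whose product acidifies the gut lumen, went from 324 ± 4.81 to 79.6 ± 1.87 CPM, a log2 fold change of -2.03 ± 0.06 (adjusted p = 6.09e-18). The sodium-proton exchanger regulatory factor gene nrfl-1 fell by 1.31 ± 0.07 and the P-glycoprotein gene pgp-3 fell by 1.56 ± 0.10 on the log2 scale. The 2 genes that rose in water, itx-1 (0.19, adjusted p = 0.0485) and pgp-1 (2.05, adjusted p = 0.0445), were close to the threshold and neither passed in arsenite. The pair is named after its values were seen.

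Gut esterases and acid phosphatases went both ways. Of 13 tested, 5 rose, 4 fell and 4 did not pass in water, with a median of -0.03. Over all genes tested 30.1% rose and 30.0% fell, so going both ways is not particular to this list. The acid phosphatase gene pho-11 went from 37.8 ± 3.94 to 116 ± 16.7 CPM, a log2 fold change of 1.63 ± 0.09 (adjusted p = 5.99e-10). By contrast pho-7 (-2.10 ± 0.18) and pho-13 (-2.82 ± 0.18) fell with pho-1. Several of these phosphatase genes are similar in sequence, and how reads that fit more than 1 place were counted is not given in the sources used here.

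Genes known as targets of ELT-2 also went both ways, with 5 higher, 6 lower and 1 not passing of 12 in water and a median of -0.09. All genes tested did so too, at 30.1% higher and 30.0% lower. The metallothionein gene mtl-2 went from 5.16 ± 0.42 to 27.2 ± 0.90 CPM, a log2 fold change of 2.39 ± 0.13. The ferritin gene ftn-1 went from 0.647 ± 0.28 to 30.5 ± 4.44 CPM, a log2 fold change of 5.57 ± 0.26. Its lowest count in any library was 12, so the size of this change rests on few reads at 1 day. The cadmium-responsive gene cdr-1 was at 7.75 ± 0.19 CPM at 1 day and 0.763 ± 0.25 CPM at 5 days, a log2 fold change of -3.34 ± 0.23. In arsenite 3 were higher and 6 lower. Over the alternatives the number higher was 3 to 5 in water, lowest with a 1-day library left out, and 3 to 6 in arsenite. In arsenite it was 5 with DESeq2, with limma voom and with the libraries of the contrast alone. It was 6 with library totals alone and with the term for adjacent library numbers, so the 3 reported was the lowest.

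The microvillar actin did not share its direction with all of the actin family. In water act-4 fell by 1.28 ± 0.07 and act-3 fell by 0.70 ± 0.07 on the log2 scale. The act-1 gene rose, from 77.2 ± 0.74 to 105 ± 0.71 CPM (log2 fold change 0.44 ± 0.07), and act-2 had a log2 fold change of 0.16 ± 0.06 (adjusted p = 0.0253) that lost its call in 4 of 15 alternatives. These 4 genes are near copies of each other, so their counts are uncertain where reads could not be placed.

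**Figure D5:**
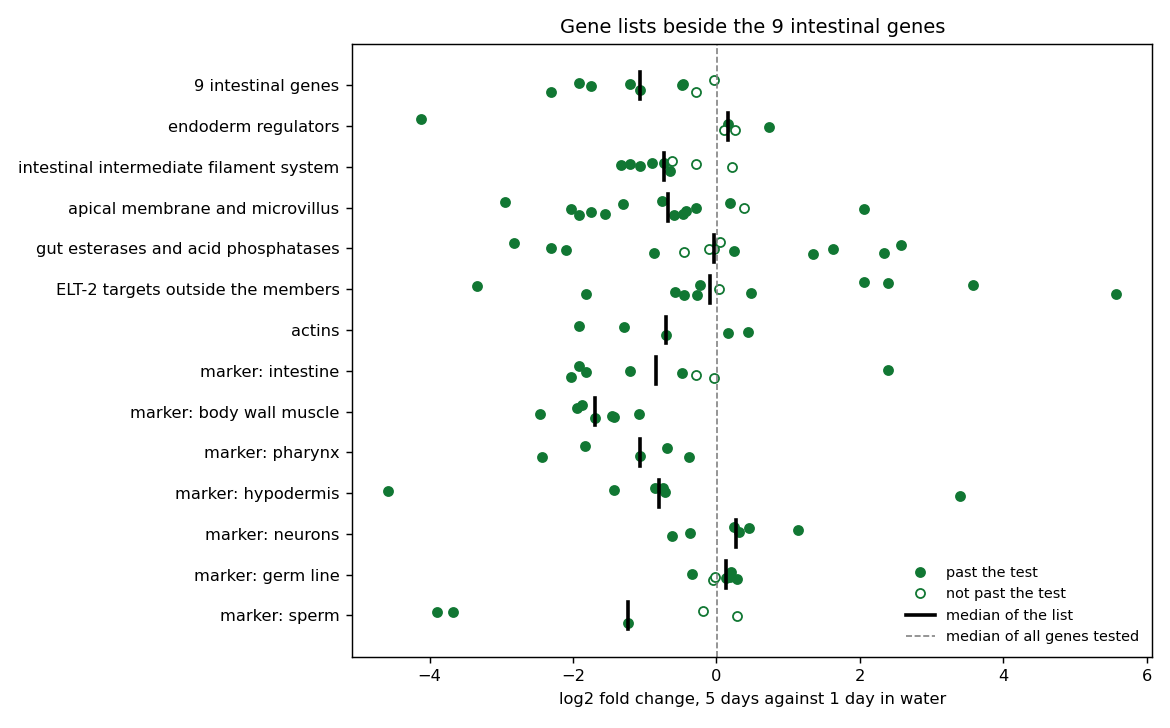
Log2 fold change of every tested gene of each list, 5 days against 1 day in water, with the 9 intestinal genes at the top and tissue marker lists at the bottom. Filled points passed the test and open points did not, the thick line is the median of the list and the dashed line the median of all genes tested. The 9 genes have a median of -1.07, body wall muscle markers -1.69 and germ line markers 0.14.

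Markers of other tissues moved with age beside the 9 genes. The shares over all genes tested in water were 30.0% lower and 30.1% higher. In water all 7 body wall muscle markers were lower at 5 days, and their summed level was 4865 to 4887 CPM at 1 day and 1326 to 1498 CPM at 5 days. All 5 pharynx markers were lower (449 to 467 CPM, then 201 to 279.8 CPM), as were 5 of 6 hypodermis markers (582 to 635 CPM, then 92.4 to 101 CPM). The other hypodermis marker, rol-6, was higher, with a log2 fold change of 3.40 ± 0.33 (adjusted p = 8.84e-07). Without the water library numbered 33, 3 of 5 pharynx markers passed. Most of the hypodermis sum was the collagen gene col-19, at 485 ± 33.1 and then 20.3 ± 1.83 CPM, and the means of the other 5 genes summed to 124 and then 76.6 CPM. Of 6 neuronal markers 4 were higher and 2 lower (272 to 294 CPM, then 435 to 451 CPM). The synaptobrevin gene snb-1 alone went from 122.5 ± 6.77 to 269.7 ± 3.19 CPM, while the means of the other 5 summed to 160.2 and then 173 CPM. Leaving out the water library numbered 25 or 33 left 2 neuronal markers higher, and leaving out 23 or 33 left 1 lower. In addition, 3 of 5 sperm markers were lower (9.19 to 9.39 CPM, then 3.04 to 4.21 CPM). Of 7 germ line markers 4 were higher, or 2 without the water library numbered 31, and 1 was lower, and their sum was 5415 to 5541 CPM at 1 day and 5603 to 5624 CPM at 5 days. Of 8 intestine markers 5 were lower and 1 higher. Apart from the 9 genes, vha-6 and the protease gene asp-1 were lower and mtl-2 was higher. No marker was at 0 counts over the 8 libraries. The part of these tissues in the age differences of the 9 genes was not tested.

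In arsenite all 7 body wall muscle, all 5 pharynx, 4 of 6 hypodermis and 3 of 5 sperm markers were lower at 5 days. Of the hypodermis markers 1 did not pass and 1 was higher, rol-6, at 3.24 ± 0.35 on the log2 scale (adjusted p = 2.56e-06). Of 8 intestine markers 6 were lower and 1 higher. The shares over all genes tested were 29.4% lower and 30.3% higher. Without the arsenite library numbered 24 or 32, 3 of the 5 pharynx markers passed. Of the neuronal markers 1 was higher, 2 were lower and 3 did not pass, and of the germ line markers 4 were higher and 1 lower. Body wall muscle markers summed to 4741 to 5019 CPM at 1 day and 1286 to 1307 CPM at 5 days, and hypodermis markers to 569 to 632 CPM and 89.8 to 98.8 CPM. Neuronal markers summed to 279 to 294 CPM and 406 to 429 CPM, of which snb-1 held 124 ± 6.999 and 256 ± 7.11 CPM, and the means of the other 5 summed to 162 CPM at both ages. The sums were for pharynx 444 to 459 CPM and 197 to 246 CPM, and for sperm 8.93 to 9.33 CPM and 2.61 to 3.39 CPM. The germ line sum was 5335 to 5546 CPM and 5507 to 5515 CPM, so the ages overlapped there. No marker passed the test for arsenite at either age.

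For each gene the 2 genes closest to it in profile were found as those with the smallest root mean square difference in log2 CPM, each centred on its mean over the 8 libraries. The closest to pept-1 was asp-1, an aspartyl protease gene of the intestine, at 0.05 log2 units (Pearson r = 0.999), followed by the cathepsin B-like gene cpr-5 at 0.05 (r = 0.998). The closest to ifc-2 was the body wall muscle myosin gene myo-3, at 0.04 (r = 0.998), and then VF13D12L.3. The closest to act-5 were dct-18 and T08B1.1, at 0.05 and 0.06, and the closest to pho-1 were C14F11.4 and egl-46, at 0.06 and 0.07.

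For ifb-2 they were mfsd-8 and the cuticle collagen gene dpy-10, both at 0.08, and for erm-1 lst-6 and the kinesin gene klp-12, both at 0.02. For elt-2 they were Y43F4A.1 and the diacylglycerol kinase gene dgk-1, at 0.05 and 0.06. For elt-7 they were F13B6.3 and the profilin gene pfn-3, both at 0.07, and for ges-1 F36D4.5 and F25H2.6, both at 0.02. The r values of all 18 pairs lay between 0.895 and 0.999. They describe 8 libraries in which 1 split, that between the ages, is shared by every gene compared.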

How the data were processed

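Whole-number read counts per gene were deposited by the authors. Per the submitters' processing notes, the build was WBcel235 and the tools were featureCounts 1.4.6-p4, CASAVA 1.7 and STAR 2.4.1d. Not given in the sources used here were the strand setting, the annotation release and the handling of multiply mapped reads, so overlapping genes and near copies are uncertain. A second deposited table, of RPKM values, was not used, because its divisors recycle across rows and its libraries are not on 1 scale. Names were matched for 43693 identifiers, and coordinates and exon lengths are from the Ensembl 115 annotation of WBcel235.

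In R 4.3.3, edgeR 4.0.16 kept genes by filterByExpr (minimum count 10, minimum total 15), scaled the 8 libraries by TMM and fitted 4 group means with the robust quasi-likelihood test, Benjamini-Hochberg adjusted over all genes. Both age contrasts share this estimate of the spread and no library. Ratios to elt-2 were tested by exact permutation over libraries. Alternatives were RLE size factors, library totals alone, no filter, DESeq2 1.42.0, voom in limma 3.58.1, the libraries of a contrast alone, a term grouping libraries of adjacent number, which the labels do not give as pairs, and leaving out each library. Library totals alone were added after the data were seen.

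The 9 genes and all lists were chosen with earlier results of these data known, and the filter kept all 9. Text names the 9, up to 3 genes of each list with the smallest p for age in water, the other actins and the 2 nearest genes in profile of each of the 9. End-1, with few counts, is given as a ratio of counts. Beyond this rule, sma-5, bbln-1, ifc-1, itx-1, pgp-1, rol-6 and EGAP2.1 were named after their values were seen, and snb-1 and col-19 for their share of a sum. The symbols fgt-1, pho-2 and pho-3 were not matched.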

Additional observations from a re-analysis of the deposited data

How the results depend on the processing

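No paired analysis was possible because the labels give no replicate numbers that the groups share. The term for adjacent library numbers groups libraries by their titles, and the labels do not call these pairs. Depth left 65 to 137 counts a library for elt-7, the least counted of the 9 genes. In each of the 5 contrasts the number of the 9 genes called stayed within 1.5 times the reported count over all alternatives: 6 to 7 lower with age in water, 7 to 8 in arsenite and 0 in the arsenite contrasts. The 6 ratios to elt-2 that passed became 0 to 0 when 1 library was left out, where the smallest possible p is 0.0571, so those tests say nothing about stability. With library totals as the only scaling, ges-1 reversed with age to 0.044 in water and 0.0080 in arsenite, where the median of all genes was 0.085 and 0.096. With elt-7 as the reference, the erm-1 ratio reversed to -0.0098. The cause of these reversals was not tested. Other values that changed sign when 1 library was left out were all values that had not passed the test, and they ran from the lowest to the highest as follows. For arsenite at 1 day they ran from -0.12 to 0.0027 for elt-2, -0.22 to 0.066 for elt-7, -0.078 to 0.062 for pho-1, -0.060 to 0.096 for act-5, -0.16 to 0.043 for ifb-2, -0.033 to 0.019 for ifc-2, -0.0084 to 0.048 for erm-1 and -0.091 to 0.031 for pept-1. For arsenite at 5 days they ran from -0.33 to 0.060 for elt-2, -0.055 to 0.026 for ges-1, -0.20 to 0.13 for pho-1, -0.26 to 0.027 for act-5, -0.30 to 0.15 for ifb-2 and -0.29 to 0.061 for pept-1. For the difference of the arsenite effects they ran from -0.28 to 0.11 for elt-2, -0.20 to 0.13 for pho-1, -0.28 to 0.0033 for act-5, -0.25 to 0.21 for ifb-2 and -0.27 to 0.087 for pept-1. Age in water gave -0.077 to 0.0047 for ges-1, and the elt-7 ratio to elt-2 ran from -0.041 to 0.16. Counts over short lists moved by over 1.5 times in some alternatives. In water, the genes higher with age were 1 to 3 of the endoderm regulators, 0 to 1 of the filament system, 0 to 2 of the apical membrane list, 3 to 5 of the ELT-2 targets, 1 to 2 of the actins, 1 to 4 of the neuronal and 2 to 4 of the germ line markers, and those lower were 3 to 5 of the pharynx and 1 to 2 of the neuronal markers. In arsenite, those higher were 0 to 2 of the apical membrane list, 3 to 6 of the ELT-2 targets, 1 to 2 of the actins and 1 to 4 of the neuronal markers, and those lower were 3 to 5 of the pharynx and 1 to 2 of the germ line markers.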
